A study of Rattus norvegicus with 4 samples.

Results

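The miRNAs described here are the leukocyte set miR-142-5p, miR-142-3p, miR-223, miR-150, miR-146a, miR-146b and miR-155, chosen from the probes of a rat miRNA array by a rule on names that uses no measured value, though with earlier results of these data known. Of the 7 names, 6 were found among the 679 miRNA probes, each as 1 spot, and miR-155 is not analysed here. Prostate RNA came from male TRAP rats, in which a prostate epithelial (probasin) promoter drives a viral large T antigen, so that the glandular epithelium develops cancer. Every group carried the transgene, was fed a control diet and was 6 weeks old at the start. The 4 groups were lateral prostate after OBP-801, lateral prostate after saline, ventral prostate after OBP-801 and ventral prostate after saline, with injections into a vein 2 times a week for 8 weeks. OBP-801 is an inhibitor of histone deacetylases, and its dose is given as 1 mg/kg in the treatment protocol but as a plain 1 mg elsewhere in the labels. Each group is 1 array, so no group has a replicate, and the number of rats behind an array is not given in the labels. Comparisons of single arrays therefore carry no p-value.

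Mature miRNAs are short RNAs that pair with messenger RNAs, mainly through a seed near the 5′ end, and lower their output. miR-142 and miR-223 are made almost only in blood-forming cells and their descendants, which makes them markers of leukocytes within a solid tissue: miR-142 is shared by most leukocytes, and miR-223 is strongest in neutrophils and other myeloid cells. miR-150 marks mature lymphocytes, and miR-146a and miR-146b are induced by inflammatory signalling through NF-kappaB and damp it, in leukocytes and also in epithelial cells. In RNA from whole tissue, fewer cells of a type and less RNA per cell cannot be told apart.

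The mature sequences are shown because they tell which probes could read the same RNA. They come from RefSeq (build GRCr8) and were matched by name for 5 of the 6 probes, taking the 3p arm for miR-223 and the 5p arm for miR-146a and miR-146b. Capitals mark the seed, bases 2 to 8.
miR-142-5p: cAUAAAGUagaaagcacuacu
miR-142-3p: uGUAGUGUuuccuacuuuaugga
miR-223: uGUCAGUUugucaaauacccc
miR-146a: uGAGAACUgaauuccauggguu
miR-146b: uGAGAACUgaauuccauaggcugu
Only miR-146a and miR-146b share a seed, and the table held no other mature rat miRNA with any of these 4 seeds. Over the 22 bases compared from the 5′ end, miR-146a and miR-146b differ by 2 substitutions, G18A and U21C (miR-146a's base first, positions counted from 1 at the 5′ end). One probe of this pair may therefore take up part of the other's signal. The other 3 had at least 7 mismatches to the closest other mature miRNA in the same ungapped comparison.

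miR-142-5p and miR-142-3p are the arms of 1 hairpin, shown here with both arms in capitals because the probes of its arms gave unequal differences. The hairpin lies at chr10:73055104-73055190 on the plus strand, inside the gene Tspoap1 and beside Mpo, the gene of neutrophil myeloperoxidase.
Mir142: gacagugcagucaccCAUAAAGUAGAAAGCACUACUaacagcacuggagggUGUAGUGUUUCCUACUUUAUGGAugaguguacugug
The miR-223 hairpin lies at chrX:65151383-65151492 (plus strand) within a long noncoding RNA between Msn and Vsig4. That of miR-146a lies at chr10:28349996-28350090 (minus strand), also within a long noncoding RNA, beside Pttg1. That of miR-146b lies at chr1:255144860-255144947 (plus strand) within C1h10orf95. The 6 probes thus stand for 5 separate genes.

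All 6 probes were above the detection limit on all 4 arrays, the limit being the mean plus 2 SD of the blank spots (116 to 129 intensity units). The signal is the spot's median intensity, not corrected for background. Blank spots averaged 109, 104, 100 and 102 in lateral OBP-801, lateral saline, ventral OBP-801 and ventral saline.

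rno-miR-223, the myeloid miRNA, had a signal of 264 in lateral OBP-801, 224 in lateral saline, 356 in ventral OBP-801 and 509 in ventral saline. Both ventral arrays were above both lateral arrays, and ventral saline stood highest. On the scale of normalized log2 values, on which all differences below are given, the arrays read 7.63 and 7.59 in lateral and 8.47 and 9.04 in ventral prostate, OBP-801 before saline in each lobe. The range of 1.46 was exceeded by 0.413% of the 242 miRNAs detected on all arrays, for which the median range was 0.36.

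rno-miR-146a had a signal of 389 in lateral OBP-801, 424 in lateral saline, 541 in ventral OBP-801 and 628 in ventral saline. Its seed partner rno-miR-146b had 280, 272, 406 and 438 in the same order. For both, the ventral arrays lay above the lateral ones, and the lobes did not overlap. The step between the lobes, from the lower ventral to the higher lateral array, was 0.59 for miR-146a and 0.78 for miR-146b, while the ventral arrays were 0.11 and 0.10 apart and the lateral arrays 0.37 and 0.10 apart. Ranges over the arrays were 1.06 and 0.98.

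rno-miR-142-5p had a signal of 164 in lateral OBP-801, 205 in lateral saline, 187 in ventral OBP-801 and 271 in ventral saline. It was highest in ventral saline and lowest in lateral OBP-801, with lateral saline 0.09 above ventral OBP-801 between them. Both saline arrays thus lay above both OBP-801 arrays, while the lobes overlapped. rno-miR-142-3p, the other arm, had 136, 135, 145 and 160 in the same order. These signals were 1.05, 1.08, 1.25 and 1.29 times the detection limit, the dimmest of the set, which leaves little room to see a difference. The probe of miR-142-3p put both ventral arrays above both lateral ones, with a range of 0.54.

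rno-miR-150, the lymphocyte miRNA, had a signal of 266 in lateral OBP-801, 249 in lateral saline, 274 in ventral OBP-801 and 223 in ventral saline. Its lobes overlapped, as did its agents: ventral OBP-801 was highest, and the other arrays lay within 0.18 of each other. The range of 0.48 was exceeded by 34.3% of miRNAs detected on all arrays.

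**Figure D1:**
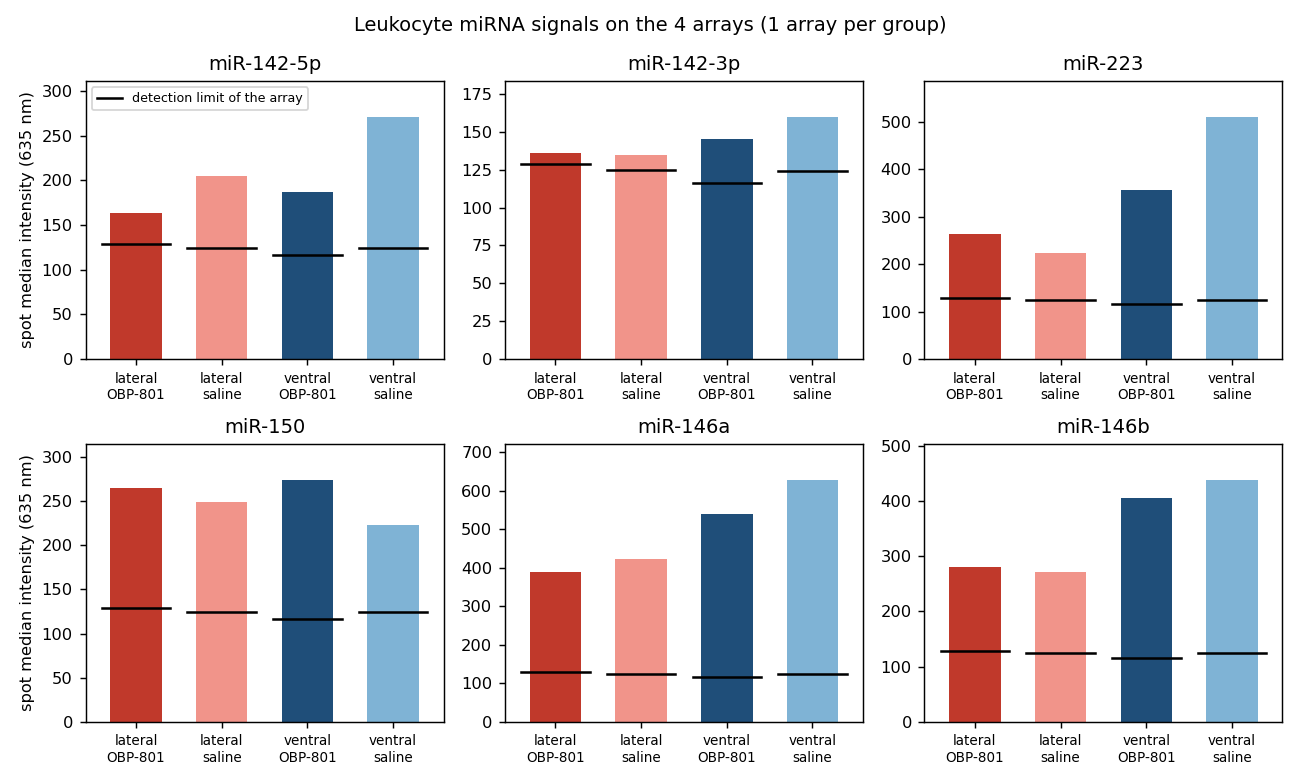
Spot median intensity (linear axis from 0) of each leukocyte miRNA on the 4 arrays, 1 bar per array, with a black line at that array's detection limit. miR-223, miR-146a and miR-146b are higher on both ventral arrays than on both lateral ones, miR-142-5p is highest in ventral saline, and miR-142-3p lies just above the limit.

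The minor arms gave almost no signal. The array held miR-223*, miR-150*, miR-146a* and miR-146b*, and only miR-150* was detected, on all 4 arrays, at 146 in lateral OBP-801, 146 in lateral saline, 122 in ventral OBP-801 and 145 in ventral saline. The lateral-minus-ventral differences of miR-150* were -0.01 under OBP-801 and -0.01 under saline. The other 3 were below the limit on every array.

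Set against ventral prostate, lateral prostate had lower levels of most of these miRNAs, under OBP-801 and under saline. Under OBP-801, all 6 members were lower in lateral prostate, with a median log2 difference of -0.69, against -0.01 over the 271 miRNAs detected on both arrays. Under saline, 5 of 6 were lower, with a median of -0.61, against -0.04 over 255 miRNAs. Of all miRNAs, 142 of 271 were below 0 under OBP-801 and 141 of 255 under saline. At least 1.5-fold lower were miR-223, miR-146a and miR-146b, 3 of 6 in either comparison, where the share over all miRNAs was 2.58% under OBP-801 and 1.96% under saline. The count under OBP-801 was 1 without normalization or with spike scaling, where the median of all miRNAs was 0.28 or 0.29, and 6 with the blank level subtracted. Under saline it was 3, 2 and 5 in these settings. No member was at least 1.5-fold higher, where all miRNAs gave 4.06% under OBP-801 and 3.53% under saline. As a yardstick, the SD scaled from the median absolute deviation over all miRNAs was 0.21 under OBP-801 and 0.25 under saline. It mixes biological and technical differences between 2 arrays and is not a replicate error.

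miR-223 had the largest single difference, -1.46 under saline, which is 2.74-fold lower in lateral prostate and below that of all 254 other miRNAs detected on both arrays. At these settings it was the 1 member past 2-fold. With the blank level subtracted, no offset and arrays centred on their medians, 5 members were at least 2-fold lower under OBP-801 and 2 under saline. At the reported settings, under saline, 0.392% of all miRNAs were at least 2-fold lower and 1.18% at least 2-fold higher, and under OBP-801 0.369% and 0.738%. Under OBP-801 miR-223 differed by -0.84, or 1.79-fold. miR-146a differed by -0.96 under OBP-801, or 1.94-fold, with 2 of 271 miRNAs lower still, and by -0.69 under saline, or 1.62-fold. miR-146b gave -0.88 under either agent, or 1.84-fold. Divided by the yardstick, the differences of these 3 lay between -5.81 and -2.77.

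The arms of miR-142 were lower too, but below 1.5-fold at the reported settings. miR-142-5p differed by -0.53 under OBP-801 and by -0.53 under saline, and miR-142-3p by -0.39 and -0.42. With the blank level subtracted, no offset and arrays centred on their medians, each of these passed 1.5-fold. miR-142-5p was then at -1.24 and -0.77, and miR-142-3p at -1.33 and -0.91. At the reported settings miR-150 departed from the rest, with -0.48 under OBP-801 and 0.09 under saline. The OBP-801 and the saline comparison of the lobes share no sample. Both set the same pair of array numbers against each other, however, since the array number in the deposited files follows the lobe. Any difference between these numbers would enter both comparisons. Of the 242 miRNAs detected on all arrays, 4 (1.65%) were at least 1.5-fold lower in lateral prostate under both agents: miR-223, miR-146a, miR-146b and miR-34a, a target of p53, which was named after its values were seen. At least 1.5-fold higher under both were 6 of 242 (2.48%), none of them a member.

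**Figure D2:**
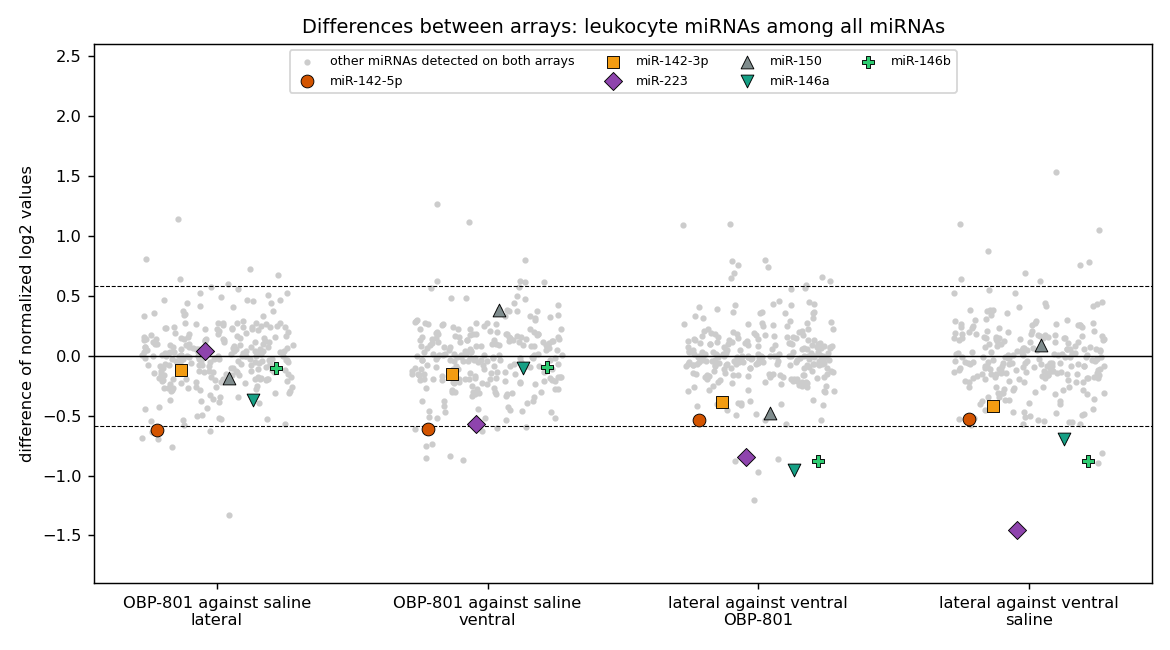
Difference of normalized log2 values (vertical axis) in each of the 4 comparisons, with coloured symbols for the 6 leukocyte miRNAs, grey points for the other miRNAs detected on both arrays, and dashed lines at 1.5-fold. In both lobe comparisons miR-223, miR-146a and miR-146b lie below the lower line, and in both drug comparisons miR-142-5p lies just below it.

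OBP-801 against saline gave smaller differences in the set, and miR-142-5p led them in both lobes. The median over the 6 members was -0.15 in lateral prostate, against 0.00 over 271 miRNAs, and -0.13 in ventral prostate, against -0.02 over 260. In each lobe 5 of 6 were below 0, where 132 of 271 miRNAs were so in lateral and 137 of 260 in ventral prostate. In each lobe 1 member was at least 1.5-fold lower, where 2.58% of all miRNAs were so in lateral and 3.85% in ventral prostate. None was at least 1.5-fold higher, where all miRNAs gave 2.21% in lateral and 2.69% in ventral prostate. None was past 2-fold in either direction, where all miRNAs gave 0.369% higher and 0.369% lower in lateral prostate, and 0.769% higher and 0% lower in ventral prostate. The yardstick was 0.23 in lateral and 0.26 in ventral prostate. Without normalization between arrays, the lateral median of all miRNAs was 0.19. There 2 of 6 members were below 0, where 62 of 271 miRNAs were so. Those 2 were miR-142-5p at -0.43 and miR-146a at -0.14, which thus kept their direction. For miR-142-3p, miR-150 and miR-146b, the lateral direction holds relative to all miRNAs and not for the plain signal.

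miR-142-5p differed by -0.62 in lateral prostate, or 1.54-fold lower after OBP-801, and by -0.61 in ventral prostate, or 1.53-fold lower. Its lateral and ventral responses differed by -0.0079. In either lobe 6 miRNAs were lower still. Less the median of all miRNAs, the difference reached 1.5-fold in 9 of 11 alternatives in lateral and in 5 of 11 in ventral prostate, and in neither lobe without background correction. The offset added to each signal shrinks such differences for dim spots: with the blank level subtracted, no offset and arrays centred on their medians, the differences were -1.31 in lateral and -0.84 in ventral prostate. The opposite arm, miR-142-3p, gave -0.12 in lateral and -0.15 in ventral prostate, within the yardstick, and -0.66 and -0.25 with the blank level subtracted, where the yardstick was 0.46 and 0.45. At least 1.5-fold lower in both lobes were 2 of 242 miRNAs (0.826%), miR-142-5p and miR-16, a repressor of cell cycle genes, and 1 (0.413%), not a member, was at least 1.5-fold higher in both.

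The myeloid miR-223 had 0.04 in lateral and -0.57 in ventral prostate, below 1.5-fold in both. miR-150 had -0.18 in lateral and 0.38 in ventral prostate. miR-146a had -0.37 and -0.11 in these lobes, and miR-146b -0.10 and -0.10. Between the lobes, the response (lateral minus ventral) thus differed by 0.61 for miR-223, by -0.57 for miR-150 and by -0.26 for miR-146a. Over the 242 miRNAs detected on all arrays this quantity had a spread of 0.25. It uses all 4 arrays and leaves nothing to test it with.

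The ventral saline array enters both the ventral drug comparison and the saline lobe comparison. It was the highest array for 5 of 6 members, all but miR-150, and for 30.6% of all miRNAs detected on every array. Values of miR-223 in the comparisons that do not use it were 0.04 (drug, lateral) and -0.84 (lobe, OBP-801). For miR-142-5p they were -0.62 and -0.53, and for miR-146b -0.10 and -0.88.

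**Figure D3:**
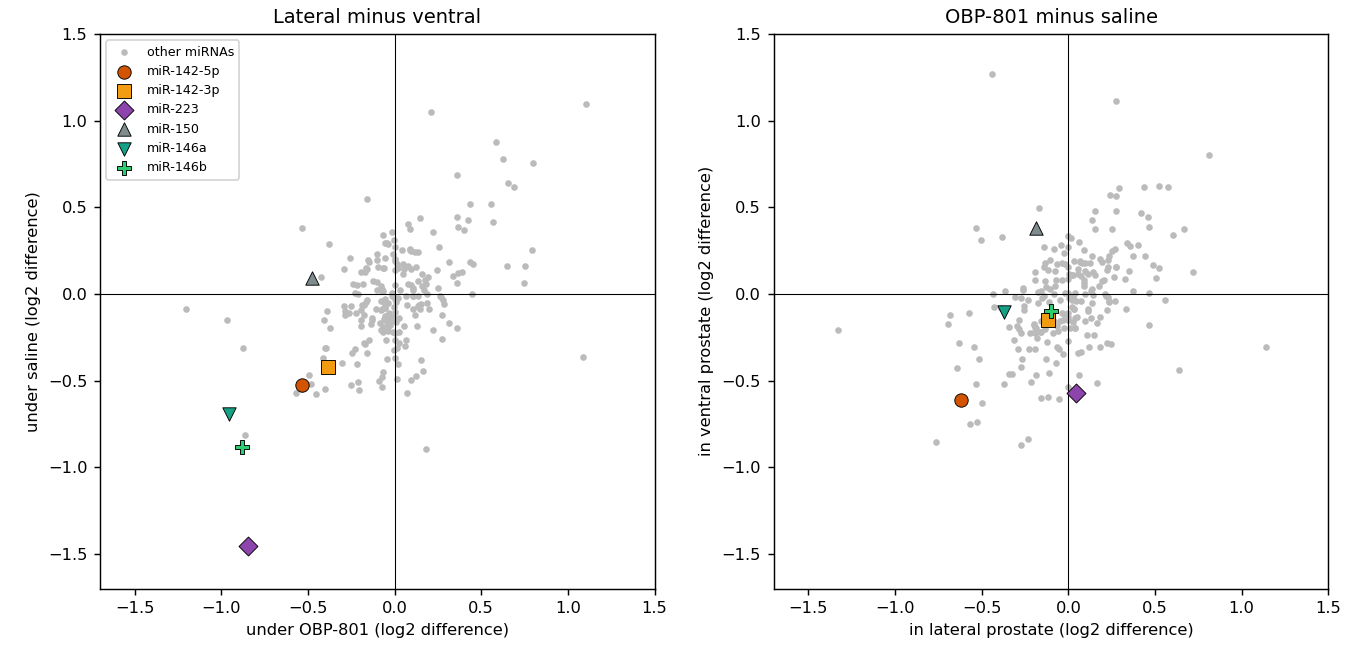
Left, log2 difference lateral minus ventral under OBP-801 (horizontal) and under saline (vertical); right, OBP-801 minus saline in lateral (horizontal) and in ventral prostate (vertical), for the 242 miRNAs detected on all arrays. On the left miR-223, miR-146a and miR-146b sit at the lower left edge, and on the right miR-142-5p does, with miR-223 and miR-150 off the diagonal.

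An additive fit with lobe and agent as terms was the one test that the 4 arrays allowed (limma, Benjamini-Hochberg over 242 miRNAs, 1 residual degree of freedom). That residual is the difference of the drug response between the lobes, with its spread pooled over miRNAs. The SE and p values below thus do not measure variation between rats or between arrays of one group. Neither term had a miRNA with an adjusted p under 0.05 (0%). An unadjusted p under 0.05 was reached by 40 miRNAs (16.5%) for the lobe, among them 5 of the 6 members, and by 40 (16.5%) for the agent, among them 1 member. For lateral against ventral, miR-146b was at -0.88 (SE 0.087, adjusted p = 0.090 in limma) and miR-146a at -0.82 (SE 0.11, adjusted p = 0.090 in limma). miR-223 was at -1.15 (SE 0.18, adjusted p = 0.094 in limma) and miR-142-5p at -0.53 (SE 0.087, adjusted p = 0.094 in limma). These were lower in lateral prostate under 2 of 2 agents, as was miR-142-3p, at -0.40 (SE 0.088, adjusted p = 0.15 in limma). miR-150 was at -0.19 (SE 0.17, adjusted p = 0.63 in limma). For the agent, miR-142-5p was at -0.62 (SE 0.087, adjusted p = 0.15 in limma), lower in 2 of 2 lobes, and the other members had an adjusted p of 0.32 to 0.76.

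The lobe values missed the threshold in this setting and passed it in some others. Over 11 alternatives, the adjusted p for the lobe was under 0.05 in 7 for miR-223, 7 for miR-146b and 6 for miR-146a, and in 3 for miR-142-5p. In limma it ranged from 0.00029 to 0.17 for miR-223 and from 0.00062 to 0.35 for miR-146b. For miR-146a the range was 0.0017 to 0.62, and for miR-142-5p 0.010 to 0.61. For the agent, miR-142-5p passed in 3 of 11, with a range of 0.010 to 0.45. Both ventral arrays carry one array number in the deposited files and both lateral arrays another, and saline was in cell 1 and OBP-801 in cell 2 of each, so that these layouts and the contrasts cannot be told apart.

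Other miRNAs linked to leukocytes were read beside the set, with no test of a difference from it. The miR-342 arms and the lymphoid miR-181 family held 6 probes, 4 of them tested under OBP-801 and 3 under saline, with lobe medians of -0.04 and 0.20 and none past 1.5-fold. Among miRNAs linked to Toll-like receptor signalling, miR-132 and miR-147 were detected on no array, and the 3 tested, miR-9, miR-21 and miR-125b-5p, had lobe medians of -0.31 under OBP-801 and -0.40 under saline. Only miR-125b-5p passed 1.5-fold, at -0.97 under OBP-801, against -0.15 under saline. In the drug comparisons, the 5 miR-342 and miR-181 probes tested in lateral prostate were all below 0, with a median of -0.25. Over all miRNAs, 132 of 271 were below 0 there. Of these probes, miR-181c at -0.002 and miR-181d at -0.02 were close to 0. Their signals were only 1.01 to 1.14 times the detection limit on the lateral arrays. Without normalization they were above 0, at 0.13 and 0.09, while miR-342-3p, miR-181a and miR-181b stayed below 0. The 3 miR-342 and miR-181 probes tested in ventral prostate had a median of -0.07, again with none past 1.5-fold.

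Levels of markers of other cells are given for the same arrays. The summed signal above the blank level of the 6 leukocyte probes was 845 in lateral OBP-801, 886 in lateral saline, 1310 in ventral OBP-801 and 1621 in ventral saline. In the same order, miR-146a made up 280, 320, 441 and 527 of these sums, and miR-146b 171, 168, 306 and 337. Neither these sums nor those of the epithelial markers were normalized between arrays. Epithelial markers (miR-200, miR-141, miR-429, miR-205 and miR-203, 7 of 7 detected on every array) summed to 75728 and 58275 in lateral prostate, OBP-801 and saline, and to 35183 and 42623 in ventral prostate. On the normalized log2 scale their lobe medians were 0.20 under OBP-801 and 0.15 under saline, and miR-205 was at -0.41 and -0.37. Erythroid miR-451, a sign of blood in the tissue, was higher in lateral prostate by 0.75 under OBP-801 and 0.16 under saline, while miR-144 was detected on no array. Striated muscle probes had lobe medians of 0.84 under OBP-801, with 2 of 2 higher in lateral prostate, and 0.88 under saline, with 2 of 3 higher. Endothelial miR-126 and miR-126* had lobe medians of 0.11 and 0.15. Stromal markers had 0.00 and -0.10 but were split, with 2 above and 2 below 0 under OBP-801 and 2 and 3 under saline. They ranged from -0.39 to 1.09 under OBP-801 and from -0.36 to 0.78 under saline. Of these, miR-143 was at 0.63 and 0.78, and miR-145 at 1.09 and -0.36. The stromal 0.00 was miR-214, which held the same rank on both arrays, so that quantile normalization made its values equal. For OBP-801 against saline, the medians in lateral and ventral prostate were 0.27 and 0.34 for stromal and 0.24 and 0.29 for endothelial markers. Epithelial markers had 0.00 and -0.15. That 0.00 came from miR-200a, miR-200b and miR-429, which held the same ranks on both lateral arrays, so that quantile normalization made their values equal. Without normalization they were at 0.06, 0.66 and 0.37, where the median of all miRNAs was 0.19. Striated muscle markers had -0.17 over 4 probes and 0.14 over 2, miR-133a (-0.26 and 0.03) and miR-133b (0.27 and 0.26). miR-451 was at 0.56 and -0.04. miR-122, abundant in liver, was below the limit on every array. The part of these cell types in the differences was not tested.

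Patterns across the arrays were also set side by side. Likeness was measured as the root mean square distance between log2 values over the 4 arrays, each miRNA centred on its own mean, so small distances mean parallel levels over only 4 points. The nearest miRNA to miR-146a was miR-34a, at 0.054, followed by miR-146b at 0.10 and miR-221 at 0.15, where the median distance over all was 0.45. The same 2 outside miRNAs lay nearest to miR-146b, at 0.079 and 0.16. For miR-223 the nearest were miR-146b at 0.22, miR-34a at 0.23 and miR-146a at 0.27, against a median of 0.61. miR-142-5p lay nearest to miR-17-5p (0.14), miR-16 (0.16) and miR-23b (0.17), against a median of 0.42, and its own opposite arm ranked 17th of the others. Seen from miR-142-3p, miR-142-5p ranked 125th, at 0.25 against a median of 0.24. The dim miR-142-3p lay nearest to miR-222, miR-21 and miR-1949 (0.049 to 0.069), and miR-150 to miR-666, miR-375* and miR-346 (0.083 to 0.11). The median distance was 0.24 for both, lower than for the other members.

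**Figure D4:**
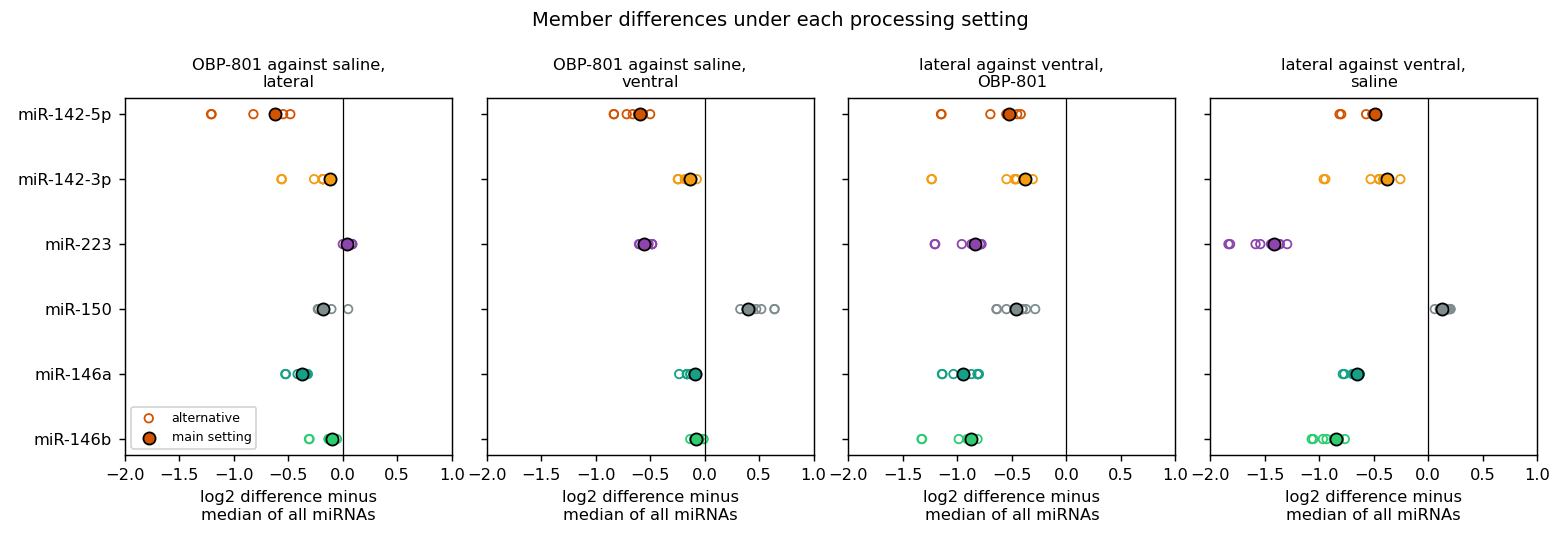
Log2 difference of each leukocyte miRNA less the median of all miRNAs (horizontal axis) in the 4 comparisons, as a filled point for the reported setting and open points for up to 11 alternatives. miR-223, miR-146a and miR-146b stay left of 0 in both lobe comparisons, as does miR-142-5p in all 4.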

How the data were processed

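Per the labels' protocols, the RNA carried a single dye, Hy5, on 1-colour arrays. The deposited scanner files give, per the file headers, each spot's median intensity and local background median, neither corrected nor normalized. The authors' deposited value table holds linear intensity values with a median of 25 per array. Each column was found to be a straight line of the spot median with its zero at the trimmed mean of the blank spots, so its scale and centring are known, and it was used as an alternative. The scanner software is not given in the sources used here.

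Background was corrected with normexp (offset 50) on all spots, control spots were dropped, 1 spot marked as faulty (no member) was set to missing, and quantile normalization between arrays followed, in limma 3.58.1 under R 4.3.3. Dim miRNAs have their differences understated by that offset. The additive fit used lmFit and eBayes with Benjamini-Hochberg adjustment over the 242 miRNAs detected on all arrays (2.54 prior degrees of freedom). With 4 arrays, precision is limited by their number. All 6 members, their other arms, the nearest 3 miRNAs to each and the marker lists were named. The 11 alternatives changed the offset, the background correction, the normalization, the filter on dim probes or the source of the values. The members and lists were chosen with earlier results of these data known.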

Additional observations from a re-analysis of the deposited data

Results flagged for a closer look

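Values of 2 members had opposite signs under the same contrast in different groups, each group being 1 array against 1 array, and the differences were not tested. For OBP-801 minus saline, miR-223 was at 0.0424 in lateral prostate and -0.57 in ventral prostate, and miR-150 was at -0.18 in lateral prostate and 0.38 in ventral prostate. For lateral minus ventral, miR-150 was at -0.48 under OBP-801 and 0.0919 under saline. With print block medians removed, the lateral drug difference of miR-150, less the median of all miRNAs, was 0.05, the same sign as in ventral prostate. The lateral value of miR-223 was 0.00 with no background correction. With the blank level subtracted, no offset and arrays centred on their medians, it was -0.06, where the median of all miRNAs was -0.10. Both lateral drug values, 0.0424 and -0.18, lay within the yardstick of 0.23. The 0.0919 of miR-150 under saline lay within its yardstick of 0.25, so none of these signs is firm.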

How the results depend on the processing

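Medians of the 6 members, less the median of all miRNAs, kept their sign in all 4 comparisons under all 11 alternatives. They moved by more than the yardstick when blank subtraction without an offset, with median centring, replaced normexp and quantile normalization, to -0.42 for OBP-801 against saline in lateral prostate and to -1.18 under OBP-801 and -0.89 under saline for lateral against ventral. The deposited value table gave -0.41, -1.17 and -0.87 for these, where the reported settings gave -0.15, -0.68 and -0.57. Both alternatives lack the offset of 50 and quantile normalization, and the share of each was not tested. The count of miRNAs with an adjusted p under 0.05 in the additive fit (limma), 0 for either term, was 17 for the agent and 25 for the lobe with an offset of 16, 9 and 20 with no background correction, 4 and 28 with no normalization, and 18 and 59 with spike scaling. For the lobe alone it was 19 with median centring, 9 with print block medians removed, 8 with the blank level subtracted, 2 with no filter on dim probes and 1 in the deposited table. The cause was not tested. Over all miRNAs, the 1.5-fold split of higher and lower was 11 and 7 for the lobes under OBP-801, against 48 and 2 without normalization, 49 and 2 with spike scaling, 9 and 10 with median centring and 120 and 10 in the deposited table, where the medians of all were 0.28, 0.29, -0.09 and 0.50. In the same order of settings it was 9 and 5 under saline, against 14 and 4, 20 and 3, 14 and 4 and 23 and 43. For OBP-801 against saline it was 6 and 7 in lateral prostate, against 24 and 1, 20 and 2, 6 and 10 and 54 and 25, and 7 and 10 in ventral prostate, against 4 and 10, 4 and 7, 5 and 5 and 6 and 116. The deposited table's medians of all were 0.15 in lateral and -0.47 in ventral prostate, and spike scaling gave 0.13 in lateral prostate and 0.14 for the lobes under saline. No array could be left out, since the additive fit would then keep no residual degree of freedom. No paired analysis was possible because each group holds 1 array.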
